A study of Mus musculus with 12 samples.

Results

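The nuclear encoded genes of the mitochondrial respiratory chain were followed in natural killer (NK) cells from mouse lymph nodes, innate lymphocytes known for killing infected or transformed cells. Members were the protein-coding genes whose symbol begins with Ndufa, Ndufb, Ndufc, Ndufs, Ndufv, Uqcr, Cox4i, Cox5, Cox6, Cox7, Cox8 or Atp5, together with Sdha, Sdhb, Sdhc, Sdhd and Cyc1. The rule took 95 of the 56748 gene IDs in the files, which carry 94 symbols because Atp5o has 2 IDs. They comprised 36 genes of complex I, 4 of complex II, 9 of complex III, 20 of complex IV and 18 of complex V, and the prefix Ndufa also took in 8 complex I assembly factors (Ndufaf genes), which are not subunits. Ndufa4 and Ndufa4l2 were placed in complex IV, where the Ndufa4 protein resides. Another 13 IDs with these prefixes are not protein coding, 12 of them processed pseudogenes, and were not members.

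The study has 3 groups of 4 libraries: NK cells from tumor-bearing nodes of mice with diffuse large B cell lymphoma in a hematogenous model, NK cells from tumor-bearing nodes in a lymphatic model of that lymphoma, and NK cells from tumor-free nodes (C57BL/6J mice). The models differ in the route of spread, through blood or through lymphatic vessels. The labels give no lymphoma line, age, sex or time point, and the strain is stated for the tumor-free mice. Replicates carry the numbers 1 to 4, and nothing states that each came from its own animal. The p-values therefore refer to the variation among the sequenced samples, part of which may be technical.

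The respiratory chain oxidizes NADH at complex I and succinate at complex II, passes electrons through ubiquinone, complex III and cytochrome c to oxygen at complex IV, and pumps protons whose return drives ATP synthesis at complex V. Most subunits are encoded in the nucleus, made in the cytosol and imported, while a smaller set, including core parts of complexes I, III, IV and V, is encoded in mitochondrial DNA. Complex II is wholly nuclear encoded and is also an enzyme of the tricarboxylic acid cycle. In NK cells, oxidative phosphorylation is known to sustain cytokine production and killing, and it is raised by stimulation with cytokines.

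Counts assigned to genes ranged from 6654215 to 43494812 per library. They averaged 1.14e+07 in tumor-free, 1.46e+07 in hematogenous and 3.13e+07 in lymphatic libraries, so the tumor-free group was the shallowest on average. Genes with a count averaged 16440 in tumor-free, 20363 in hematogenous and 22129 in lymphatic libraries. The share of reads assigned to genes was 62.0% ± 4.57 in the hematogenous libraries (SD, n = 4), against 69.9% ± 2.46 in the lymphatic and 68.3% ± 2.32 in the tumor-free libraries (exact permutation test, two-sided, p = 0.0286 for each, the smallest that 4 against 4 allows). After adjustment over 24 comparisons of library measures the lowest p was 0.137 (exact permutation test). Hematogenous replicate 1 had the lowest share of reads on genes, 55.4%, and the highest share outside annotated features, 24.6%. All 10 NK markers were read in all 3 groups. Their summed level was 8936 to 10674 CPM (counts scaled to library size with TMM factors) in hematogenous libraries, against 12369 to 15315 CPM in lymphatic and 13667 to 15394 CPM in tumor-free libraries. Of the 10, 7 were called lower in hematogenous than in tumor-free libraries (70%, all tested genes 6.87%). Against lymphatic libraries 6 were called lower (60%, all tested genes 5.92%). The 10 T cell markers summed to 405.5 to 534 CPM in hematogenous, 220 to 400 CPM in lymphatic and 185 to 321 CPM in tumor-free libraries. Of these, 3 were called higher in hematogenous than in tumor-free libraries (30%, all tested genes 9.52%). Against lymphatic libraries 3 were called higher as well (30%, all tested genes 2.93%). The 10 B cell markers summed to 90.1 to 165 CPM in hematogenous, 98.3 to 324 CPM in lymphatic and 29.3 to 140 CPM in tumor-free libraries. In each model 1 of these 10 was called higher than in tumor-free libraries, a share of 10%. Of all tested genes 9.52% were called higher in hematogenous and 2.32% in lymphatic than in tumor-free libraries. The hematogenous B cell share was thus near that of all genes. The same background holds for the macrophage and monocyte, erythroid, and stromal and endothelial calls against tumor-free libraries below. Of 9 tested macrophage and monocyte markers 4 were called higher in hematogenous than in tumor-free libraries, where Cd14 was at 0, and 1 in lymphatic than in tumor-free libraries, with sums of 68.2 to 180 CPM in hematogenous, 71.3 to 149 CPM in lymphatic and 81.4 to 147 CPM in tumor-free libraries. The 5 erythroid markers summed to 0.851 to 54.4 CPM in hematogenous, 13.2 to 38.0 CPM in lymphatic and 0 to 14.4 CPM in tumor-free libraries, with 2 called higher in hematogenous and 1 in lymphatic than in tumor-free libraries. Of 7 stromal and endothelial markers 3 were tested. Pecam1 alone was called higher in lymphatic than in tumor-free libraries, at 168 ± 6.22 against 116 ± 5.99 CPM (SD, n = 4 each). The median log2 fold change of the tested markers was −1.96 there, so the others lay below 0, and they were not called. The lymphatic sum of the list averaged 169 CPM and was thus almost wholly Pecam1. Pecam1 was also called lower in hematogenous than in lymphatic libraries (log2 fold change −0.43, edgeR adjusted p = 0.0189). In that comparison 0 B cell, macrophage and monocyte or erythroid markers were called. Fewer cells of a type and less RNA per cell cannot be told apart in such bulk libraries, and the part of these shifts in the results below was not tested.

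In hematogenous libraries the summed mRNA level of the respiratory chain genes was below that of both other groups, with the lowest ratio in complex V and the ratio nearest 1 in complex II. All members together summed to 3780, 5331, 4615 and 5044 CPM in hematogenous replicates 1 to 4, against 6835, 8013, 5859 and 6779 CPM in lymphatic and 6885, 7704, 6350 and 6926 CPM in tumor-free replicates 1 to 4. No hematogenous library reached the lowest library of either other group, and the lymphatic and tumor-free values overlapped. The ratio of hematogenous to tumor-free means was 0.674 over all members and that of lymphatic to tumor-free means was 0.986. These sums are descriptions, without a test, and abundant genes weigh most in them.

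By complex, the ratio of hematogenous to tumor-free means was 0.621 for complex V, 0.660 for complex IV, 0.677 for complex I, 0.709 for complex III and 0.886 for complex II. Complex V summed to 1596 ± 274 CPM in hematogenous and 2570 ± 213 CPM in tumor-free libraries (SD, n = 4 each). Complex II summed to 429 ± 22.8 CPM in hematogenous and 484 ± 32.7 CPM in tumor-free libraries. Sdha alone made up 276 and 269 CPM of these sums, so the complex II ratio mostly reflects that gene. Within complex I the 7 core genes, which encode the nuclear parts of the electron path, had a ratio of 0.842, and the 29 accessory genes had a ratio of 0.619.

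**Figure D1:**
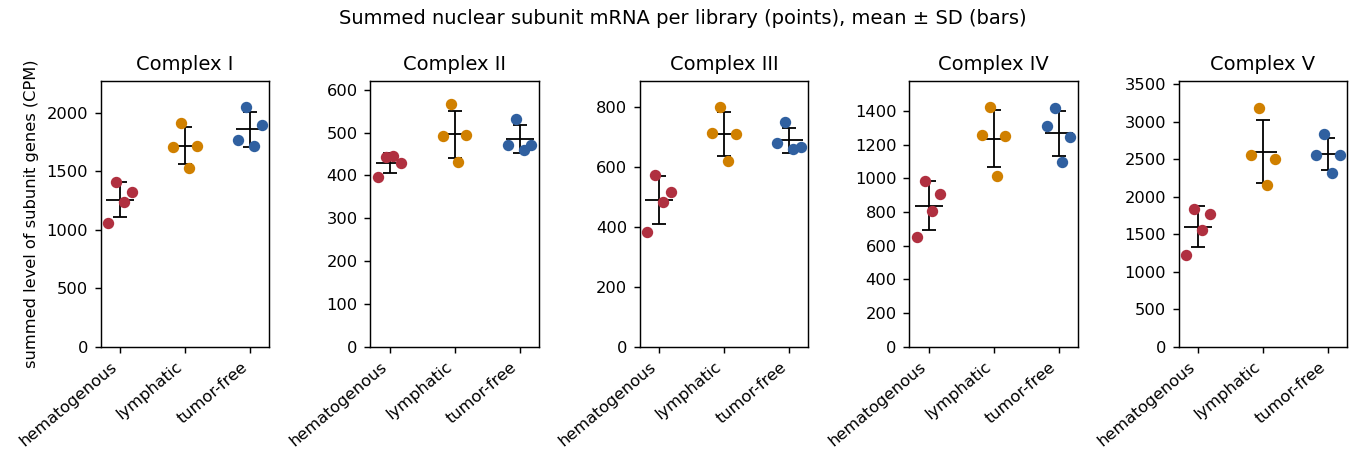
Summed level (CPM, linear axis from 0) of the member genes of complexes I to V in each library (points), with mean and SD of 4 libraries (bars), for hematogenous, lymphatic and tumor-free groups. The 4 hematogenous sums lie below every tumor-free sum in each complex, and the gap is widest in complex V (1596 against 2570 CPM on average) and narrowest in complex II (429 against 484 CPM).

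Of the 95 members, 90 passed the filter on low counts and were tested. Against tumor-free libraries, the hematogenous libraries had 47 of the 90 tested members called lower and 0 called higher (edgeR quasi-likelihood test, Benjamini-Hochberg adjusted p under 0.05 over 16016 genes). That is 52.2% of the tested members, where 6.87% of all tested genes were called lower and 9.52% higher, 16.4% in all. At an unadjusted p under 0.05, 62 members were lower and 0 higher (12.6% and 16.8% of all tested genes). DESeq2 called 0 higher as well, although 1 was called higher without tumor-free replicate 3. The median log2 fold change was −0.64 over the tested members and 0.08 over all tested genes, and 83 of the 90 were below 0. The log2 fold changes of the called members ran from −1.58 to −0.45. In 43 of the 90 every hematogenous library was below every tumor-free library, a pattern found in 8.01% of all tested genes, and in 0 above (11.5%). With the mean of the B cell marker genes as a covariate 27 members were called lower, and without hematogenous replicate 1, which held the lowest level of the 12 libraries for 57 of the 90 tested members, 33 were.

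**Figure D2:**
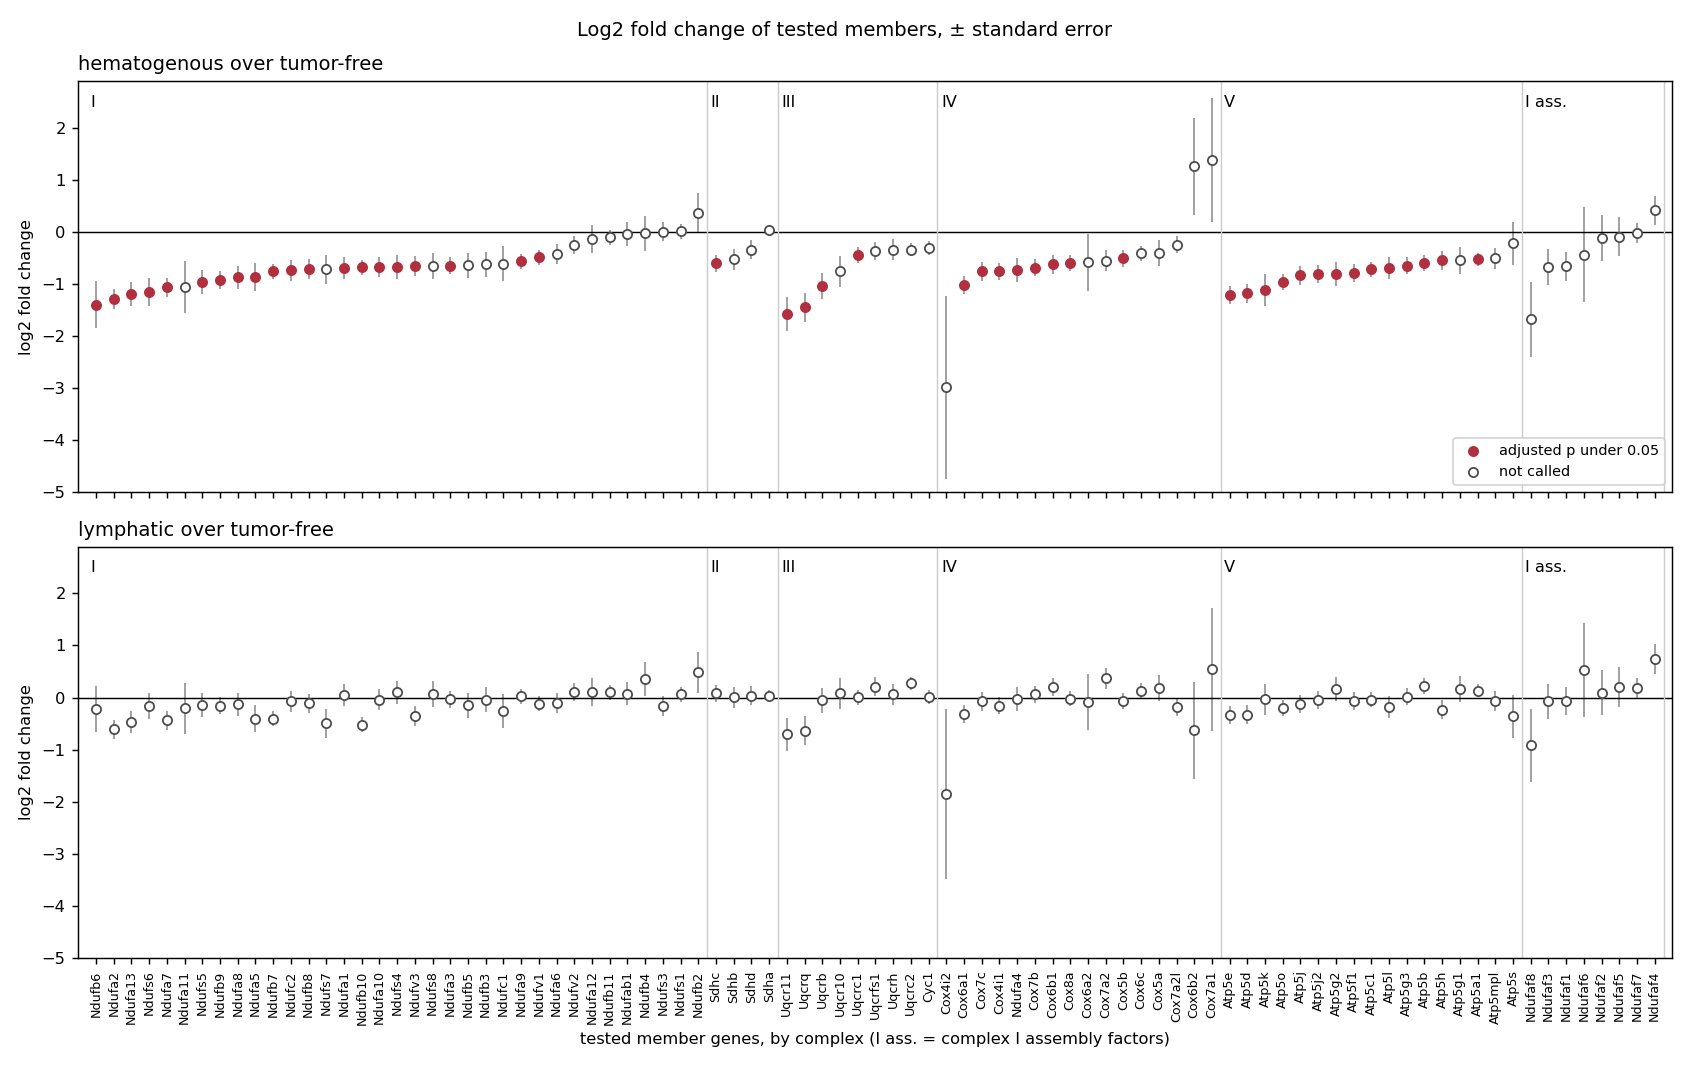
Log2 fold change with its standard error for 89 of the 90 tested members, ordered by complex, in hematogenous over tumor-free (top) and lymphatic over tumor-free libraries (bottom). Filled points passed an adjusted p of 0.05, namely 47 in the upper panel, all below 0, and 0 in the lower panel.

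Complex V, the ATP synthase, had 14 of 17 tested genes called lower in hematogenous than in tumor-free libraries, with a median log2 fold change of −0.72. All 5 genes of the soluble F1 head and its central stalk were among them. Atp5b encodes the catalytic beta subunit of the head. It stood at 271, 417, 356 and 417 CPM in hematogenous replicates 1 to 4, against 587, 547, 537 and 536 CPM in tumor-free replicates 1 to 4. The groups did not overlap (log2 fold change −0.59 with SE 0.154 and edgeR adjusted p = 0.0124). Atp5a1, the gene of the alpha subunit that alternates with beta around the head, stood at 332, 476, 397 and 457 CPM in hematogenous libraries and at 600, 616, 573 and 608 CPM in tumor-free libraries. It was likewise lower in every hematogenous library (log2 fold change −0.53 with SE 0.126 and edgeR adjusted p = 0.00758).

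Larger differences were found for the small subunits of the central stalk. Atp5e, which encodes the epsilon subunit, had the smallest adjusted p of all members. Its level was 51.8, 72.3, 59.5 and 79.7 CPM in hematogenous libraries, against 135, 217, 128 and 129 CPM in tumor-free libraries. Tumor-free replicate 2 was the highest, and the highest hematogenous library was still well under the lowest tumor-free one (log2 fold change −1.205 with SE 0.176 and edgeR adjusted p = 0.000211). Atp5d, the gene of the delta subunit of the stalk, had 32.8, 60.3, 33.7 and 55.0 CPM in hematogenous libraries and 92.0, 119, 94.1 and 109 CPM in tumor-free libraries (log2 fold change −1.18 with SE 0.186 and edgeR adjusted p = 0.000412). Hematogenous replicates 1 and 3 were the low libraries of that gene. Atp5c1, the gamma subunit gene whose product rotates inside the head, fell by 0.72 on the log2 scale (SE 0.141, edgeR adjusted p = 0.00203).

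Of the 12 tested complex V genes outside the F1 part 9 were called lower. These are genes of the peripheral stalk and membrane parts, together with Atp5s, which the prefix also took in. Atp5o, which encodes the subunit that ties the head to the peripheral stalk, stood at 37.8, 40.6, 34.3 and 36.1 CPM in hematogenous libraries, against 78.9, 77.2, 55.9 and 80.02 CPM in tumor-free libraries (log2 fold change −0.97 with SE 0.153 and edgeR adjusted p = 0.000412). The 4 hematogenous values were close to each other and clear of the tumor-free ones. The c ring, through which protons pass, is built from a single mature protein encoded by 3 genes. Atp5g3 stood at a log2 fold change of −0.65 (with SE 0.159 and edgeR adjusted p = 0.00902) and Atp5g2 at −0.81 (SE 0.233, edgeR adjusted p = 0.0225), while Atp5g1 was not called at −0.55 (SE 0.262, edgeR adjusted p = 0.169). The call of Atp5g2 was lost without tumor-free replicate 2 or 4 or hematogenous replicate 1 or 3, with the B cell covariate and with voom quality weights (highest edgeR or limma adjusted p = 0.105). Atp5k encodes subunit e, a membrane subunit of the dimer interface. It had 7.47, 27.2, 20.7 and 23.7 CPM in hematogenous libraries and 68.8, 38.3, 28.8 and 37.0 CPM in tumor-free libraries (log2 fold change −1.12 with SE 0.311 and edgeR adjusted p = 0.0184). The 3 genes not called were Atp5g1, Atp5mpl and Atp5s, and Atp5s, a coupling factor gene at low level, stood at −0.22 (SE 0.409). The inhibitor gene Atpif1, which lies outside the naming rule, averaged 10.6 ± 2.78 CPM in hematogenous and 18.4 ± 7.36 CPM in tumor-free libraries and was not called (log2 fold change −0.78 with SE 0.309 and edgeR adjusted p = 0.0914).

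**Figure D3:**
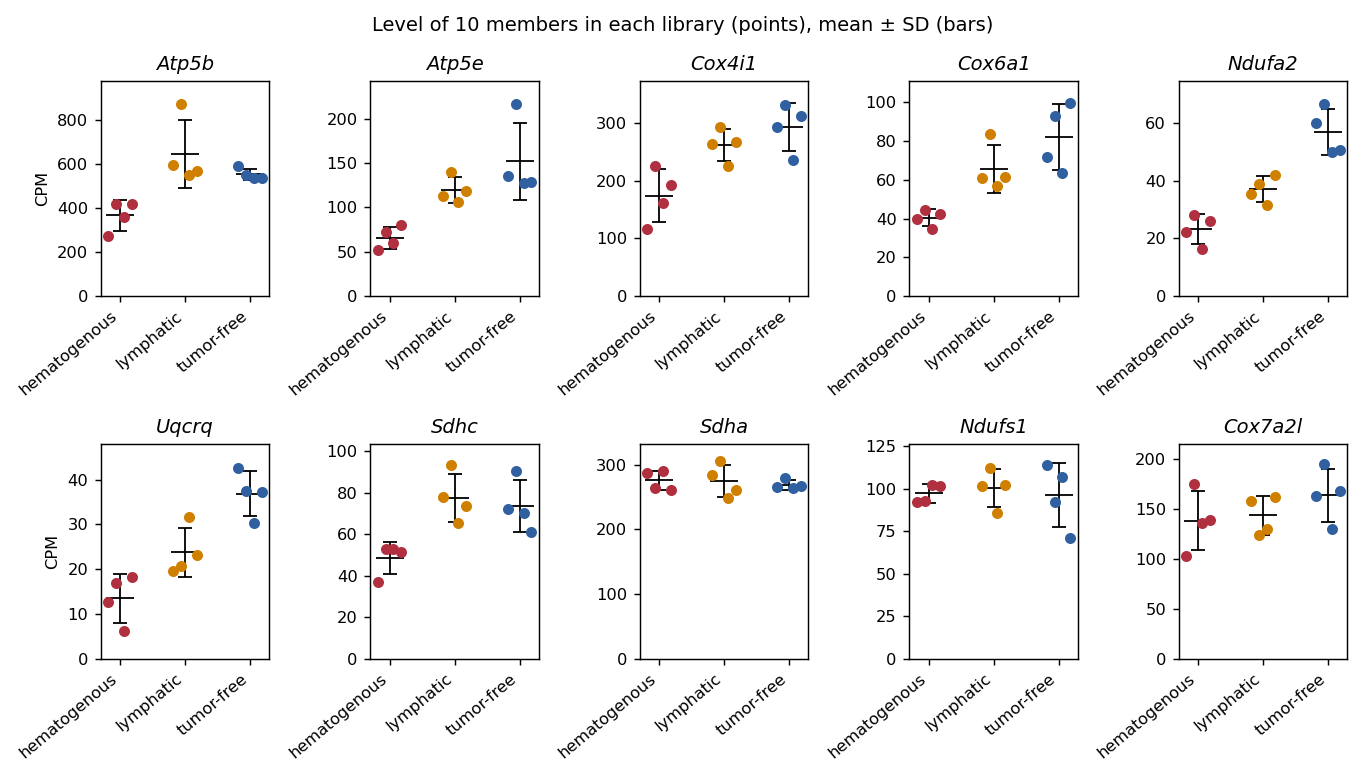
Level (CPM, linear axis from 0) of 10 members in each library (points) with mean and SD of 4 libraries (bars), for hematogenous, lymphatic and tumor-free groups. Atp5b, Atp5e, Cox4i1, Cox6a1, Ndufa2, Uqcrq and Sdhc show 4 hematogenous libraries below all tumor-free libraries, whereas Sdha lies at 261 to 290 CPM in hematogenous and 263 to 280 CPM in tumor-free libraries.

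Complex I, which takes electrons from NADH, had 20 of 36 genes called lower, with a median log2 fold change of −0.66. The called genes were nearly all accessory subunits, 19 of 29, beside 1 of the 7 core genes. Whether core and accessory genes differ was not tested. Ndufa2 encodes an accessory subunit of the arm that oxidizes NADH. It stood at 22.3, 28.01, 16.2 and 26.2 CPM in hematogenous libraries, against 59.98, 66.6, 49.97 and 50.7 CPM in tumor-free libraries, groups far apart (log2 fold change −1.29 with SE 0.192 and edgeR adjusted p = 0.000246). Ndufa7, another accessory gene of the peripheral arm, had 20.8, 27.9, 20.8 and 30.8 CPM in hematogenous libraries and 52.6, 64.2, 44.1 and 48.8 CPM in tumor-free libraries (log2 fold change −1.06 with SE 0.181 and edgeR adjusted p = 0.00073).

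Ndufs6, a zinc-binding accessory gene of the same arm, had 8.60, 18.1, 13.4 and 21.6 CPM in hematogenous libraries and 26.1, 43.4, 28.3 and 40.7 CPM in tumor-free libraries. The groups did not overlap (log2 fold change −1.16 with SE 0.264 and edgeR adjusted p = 0.00571). Ndufb6, an accessory gene of the membrane arm, had the lowest log2 fold change of the complex, −1.40 (SE 0.453, edgeR adjusted p = 0.0393). Its hematogenous values of 0.756, 10.3, 6.66 and 11.0 CPM include a very low replicate 1, and its tumor-free values were 16.8, 20.9, 22.6 and 16.1 CPM. That call was lost without any 1 tumor-free library, without hematogenous replicate 3, with the B cell covariate and in a fit of those groups alone (highest edgeR adjusted p = 0.0977).

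Of the 7 core genes 1 was called lower. Ndufv1, which encodes the flavin-binding subunit where NADH gives up its electrons, was that gene (48.3, 55.2, 43.8 and 58.0 CPM in hematogenous against 62.8, 83.9, 65.6 and 75.4 CPM in tumor-free libraries; log2 fold change −0.49 with SE 0.147 and edgeR adjusted p = 0.0285). It is named here because it was the single call, after its values were seen. Ndufs1, the gene of the largest iron-sulphur subunit, stood at 92.2, 92.7, 103 and 102 CPM in hematogenous libraries and at 114, 92.5, 107 and 71.2 CPM in tumor-free libraries (log2 fold change 0.01 with SE 0.144). Its sign changed under several settings and was never called. Ndufs3, the gene of another subunit of the same arm, was at 0.01 (SE 0.189). Ndufs7 and Ndufs8, core genes of iron-sulphur subunits on the path to ubiquinone, stood further from 0, at −0.71 (SE 0.278, edgeR adjusted p = 0.0875) and −0.65 (SE 0.2505, edgeR adjusted p = 0.0825). These lie near the median of the 29 accessory genes, −0.68, but did not pass the test. Ndufv2, a core gene of the NADH-oxidizing end, was at −0.26 (SE 0.174, edgeR adjusted p = 0.356). Ndufb2, an accessory membrane arm gene, had the highest log2 fold change of the complex, 0.36 (SE 0.387), with 8.24 to 21.1 CPM in hematogenous and 4.46 to 17.3 CPM in tumor-free libraries. Ndufs1, Ndufs3 and Ndufb2 did not pass the test either (edgeR adjusted p of 0.5903 or more).

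Among the 8 assembly factors of complex I, 0 were called in either direction (2 were lower at an unadjusted p under 0.05), with a median of −0.28. Ndufaf4, whose product helps to build the peripheral arm, stood at 21.3, 19.3, 14.9 and 22.0 CPM in hematogenous libraries and at 17.1, 8.29, 19.9 and 12.2 CPM in tumor-free libraries. The groups overlapped (log2 fold change 0.41 with SE 0.285 and edgeR adjusted p = 0.362).

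Complex II had 1 of 4 genes called lower, with a median log2 fold change of −0.43, close to the −0.45 of complex III. Sdhc, the gene of a membrane anchor subunit, had 36.9, 52.8, 53.1 and 51.4 CPM in hematogenous libraries, against 72.3, 90.7, 70.5 and 61.0 CPM in tumor-free libraries (log2 fold change −0.60 with SE 0.165 and edgeR adjusted p = 0.0174). The call was lost without hematogenous replicate 1, the lowest library of its group, without tumor-free replicate 2, and with the B cell covariate (highest edgeR adjusted p = 0.0816). Sdhb, the iron-sulphur subunit gene, was at −0.53 (SE 0.202, edgeR adjusted p = 0.0807) and Sdhd, the other anchor gene, at −0.34 (SE 0.179, edgeR adjusted p = 0.215).

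Sdha encodes the flavoprotein that oxidizes succinate. It stood at 288, 264, 290 and 261 CPM in hematogenous libraries, 285, 305, 249 and 261 CPM in lymphatic libraries and 265, 280, 263 and 267 CPM in tumor-free libraries. The 3 groups lay on top of each other (hematogenous over tumor-free log2 fold change 0.04 with SE 0.106 and edgeR adjusted p = 0.862), which leaves small changes in either direction undetectable.

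Complex III, which passes electrons from ubiquinol to cytochrome c, had 4 of 9 genes called lower and a median of −0.45. Uqcr11 encodes its smallest subunit and had the lowest log2 fold change of all called members. It stood at 5.20, 7.47, 3.87 and 11.0 CPM in hematogenous libraries, against 24.0, 14.1, 17.7 and 27.1 CPM in tumor-free libraries (log2 fold change −1.58 with SE 0.326 and edgeR adjusted p = 0.0029). Uqcrq, another small supernumerary subunit gene, had 12.6, 17.0, 6.21 and 18.3 CPM in hematogenous libraries and 42.7, 37.4, 30.3 and 37.3 CPM in tumor-free libraries (log2 fold change −1.44 with SE 0.279 and edgeR adjusted p = 0.00181). In both genes hematogenous replicate 3 was the lowest library. Cyc1, the gene of cytochrome c1, was not called at −0.31 (SE 0.141, edgeR adjusted p = 0.151). The same held for Uqcrc2, a core subunit gene, at −0.34 (SE 0.130, edgeR adjusted p = 0.0825), and for Uqcrh, the gene of the acidic hinge protein that docks cytochrome c, at −0.34 (SE 0.202, edgeR adjusted p = 0.278).

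Complex IV, cytochrome c oxidase, had 8 of 16 tested genes called lower and a median of −0.59. Cox4i1 encodes the most widely used form of its largest nuclear subunit. It stood at 116, 225, 161 and 193 CPM in hematogenous libraries, against 293, 332, 237 and 313 CPM in tumor-free libraries (log2 fold change −0.75 with SE 0.164 and edgeR adjusted p = 0.00418). Cox6a1, a subunit gene at the dimer surface, had 39.98, 44.6, 34.4 and 42.5 CPM in hematogenous and 71.9, 93.1, 63.4 and 99.6 CPM in tumor-free libraries (log2 fold change −1.02 with SE 0.173 and edgeR adjusted p = 0.000713). For both, every hematogenous library was below every tumor-free library. Cox8a, the ubiquitous form of the smallest subunit, fell by 0.60 (log2, SE 0.149, edgeR adjusted p = 0.00987), Cox6b1 by 0.62 (SE 0.179, edgeR adjusted p = 0.022) and Ndufa4 by 0.74 (SE 0.230, edgeR adjusted p = 0.0332). The calls of Cox6b1 and Ndufa4 were lost without hematogenous replicate 1 or 3 or tumor-free replicate 1 or 2, that of Ndufa4 also without tumor-free replicate 3, and both with the B cell covariate and with voom quality weights (highest edgeR or limma adjusted p = 0.125). Those of Cox8a and Atp5b were lost with the B cell covariate alone (highest edgeR adjusted p = 0.0524).

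Few reads came from the tissue-specific forms of complex IV subunits in these NK cells. Cox4i2, a form known from lung and hypoxic cells, had 116 counts over the 12 libraries, and Cox6a2, the heart and muscle form, had 1147. Cox7a1, the muscle form of its subunit, had 393 counts, and Cox6b2, a testis form, had 426. None of these was called in any comparison, and Cox7a1 was at 0 in 3 tumor-free libraries and at 3.45 CPM in the fourth. Cox7b2, Cox8c, Ndufa4l2 and the second Atp5o ID had 0 counts in all libraries, and Cox8b had 11, of which 9 were in lymphatic replicate 4. These 5 were the members not tested. Cox7a2, the ubiquitous form, stood at −0.55 (SE 0.205, edgeR adjusted p = 0.0726). Cox7a2l stood at 103, 176, 136 and 139 CPM in hematogenous libraries and at 163, 195, 130 and 168 CPM in tumor-free libraries, with overlap (log2 fold change −0.24 with SE 0.157 and edgeR adjusted p = 0.331).

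Levels can be set against each other between genes only per length. The length used here is the union of all annotated exons of a gene, 4237 bases for Atp5b. It can exceed the length of the mRNA, so the order below also depends on the gene models and is not a ranking of transcript numbers. Over all 12 libraries Atp5a1 had the highest mean level per kilobase of exon, 178 CPM per kb, followed by Cox4i1 with 157, Cox8a with 144, Cox6b1 with 143, Atp5b with 123 and Uqcrh with 114 CPM per kb. The order of the group means was not the same in each group. Atp5a1 came first in all 3, but in hematogenous libraries Atp5b, at 86.2 CPM per kb, came after Uqcrh with 95.0 and Cox7a2l with 93.7. In lymphatic libraries Cox6b1, at 177 CPM per kb, came before Cox4i1 with 169, and in tumor-free libraries Atp5h, at 125 CPM per kb, came before Uqcrh with 121. Of the 6 genes highest over all libraries, Uqcrh alone was not called lower in hematogenous against tumor-free libraries.

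**Figure D4:**
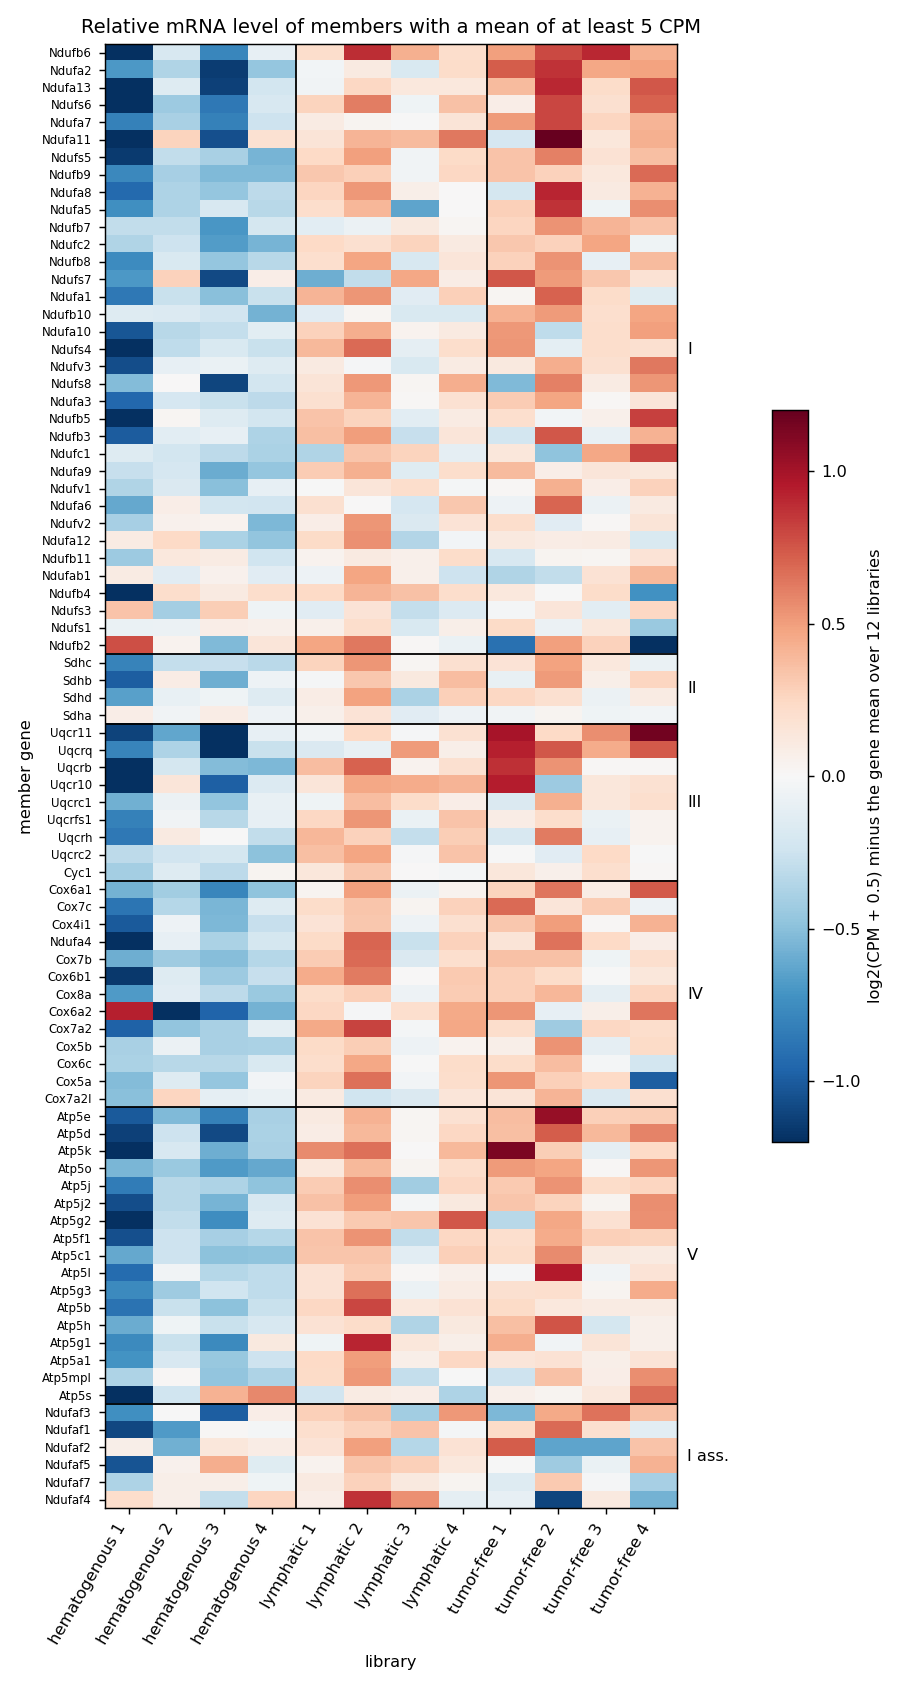
Relative level, as log2(CPM + 0.5) minus the mean of the gene over 12 libraries, for tested members with a mean of at least 5 CPM, in rows by complex, with hematogenous, lymphatic and tumor-free libraries in columns. Blue is below and red above the mean of the gene. Most rows are blue in the 4 hematogenous columns, most strongly in hematogenous replicate 1, which is the lowest library for 57 of the 90 tested members.

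Against tumor-free libraries, the lymphatic libraries had 0 of 90 tested members called in either direction, where 2.74% of all tested genes were called (edgeR). The background was 0.418% lower and 2.32% higher. At an unadjusted p under 0.05 there were 9, of which 7 were lower (3.42% of all tested genes) and 2 higher (10.2%), and DESeq2 called 3 lower and 0 higher. The median log2 fold change was −0.05, against 0.08 over all tested genes. The smallest adjusted p was that of Ndufb10, an accessory gene of the membrane arm of complex I, which is named for that reason after its values were seen. It had 49.7, 55.8, 48.0 and 48.0 CPM in lymphatic libraries, against 73.2, 78.1, 62.8 and 76.1 CPM in tumor-free libraries (log2 fold change −0.52 with SE 0.145 and edgeR adjusted p = 0.0591). In 5 members, all accessory genes of complex I, each lymphatic library was below each tumor-free library, a pattern of 2.24% of all tested genes, and in 0 each was above (7.66%).

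The lowest log2 fold changes among members of at least 5 CPM were those of Uqcr11 at −0.70 (SE 0.316, edgeR adjusted p = 0.324), Uqcrq at −0.63 (SE 0.271, edgeR adjusted p = 0.288) and Ndufa2 at −0.61 (SE 0.188, edgeR adjusted p = 0.0936). Ndufa2 stood at 35.4, 39.0, 31.7 and 42.2 CPM in lymphatic libraries, between its hematogenous and its tumor-free levels without overlap. The highest were Ndufaf4 at 0.74 (SE 0.284, edgeR adjusted p = 0.212), Ndufb2 at 0.48 (SE 0.385, edgeR adjusted p = 0.667) and Cox7a2 at 0.37 (SE 0.203, edgeR adjusted p = 0.467). For complex V the lymphatic sum was 2601 ± 425 CPM and the tumor-free sum 2570 ± 213 CPM (SD, n = 4 each), a difference smaller than either SD.

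Set against the lymphatic libraries directly, the hematogenous libraries had 37 of 90 tested members called lower (41.1%) and 0 called higher, where 5.92% of all tested genes were called lower and 2.93% higher, 8.85% in all (edgeR). At an unadjusted p under 0.05, 59 were lower and 0 higher (13.1% and 8.55% of all tested genes), and DESeq2 called 0 higher. The median was −0.60, against −0.01 over all tested genes. In 46 of the 90 every hematogenous library was below every lymphatic library, which held for 11.3% of all tested genes, and in 0 above (9.17%). This count of calls depended on single libraries and on 2 settings. It was 13 without lymphatic replicate 2, 13 without hematogenous replicate 1, 15 without hematogenous replicate 3, 23 without lymphatic replicate 4, 22 with scaling by library size alone and 15 with the gene length trend removed. This comparison shares its hematogenous libraries with the one against tumor-free nodes, so the counts do not stand apart from each other.

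Complex V again held the largest share, with 12 of 17 tested genes called lower and all 5 F1 genes among them. Atp5b stood at 271 to 417 CPM in hematogenous libraries and at 594, 873, 547 and 565 CPM in lymphatic replicates 1 to 4, with lymphatic replicate 2 far above the others (log2 fold change −0.82 with SE 0.154 and edgeR adjusted p = 0.00295). Atp5a1 had 642, 769, 572 and 646 CPM in lymphatic libraries, all above its hematogenous range of 332 to 476 CPM (log2 fold change −0.66 with SE 0.126 and edgeR adjusted p = 0.00319). Beside them Atp5o stood at −0.77 (SE 0.151, edgeR adjusted p = 0.00369), Atp5e at −0.86 (SE 0.174, edgeR adjusted p = 0.00472) and Atp5c1 at −0.68 (SE 0.140, edgeR adjusted p = 0.00568). The largest called difference was that of Atp5k, −1.08 (SE 0.308, edgeR adjusted p = 0.0328), a call lost with the replicate block, with library size alone, with the gene length trend removed and without any of 8 single libraries (each but hematogenous 2, lymphatic 3 and tumor-free 1 and 3, with a highest edgeR adjusted p = 0.123).

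Complex I had 13 of 36 genes called lower, all 13 of them accessory and 0 of the 7 core genes (4 of these were lower at an unadjusted p under 0.05). Ndufs6 stood at 8.60 to 21.6 CPM in hematogenous libraries and at 29.9, 38.0, 23.9 and 31.6 CPM in lymphatic libraries (log2 fold change −0.996 with SE 0.261 and edgeR adjusted p = 0.021), a call lost without lymphatic replicate 2 or hematogenous replicate 1 or 3 and with the gene length trend removed (highest edgeR adjusted p = 0.0956). Ndufb6 was lower by more but not called (log2 fold change −1.19 with SE 0.448 and edgeR adjusted p = 0.112). Complex III had 3 of 9 called, Uqcrb, Uqcrc2 and the Rieske protein gene Uqcrfs1. Uqcrc2 had 103, 109, 110 and 90.7 CPM in hematogenous libraries and 164, 178, 126 and 162 CPM in lymphatic libraries (log2 fold change −0.61 with SE 0.130 and edgeR adjusted p = 0.00661). Complex IV had 8 of 16 and complex II 1 of 4, again Sdhc (log2 fold change −0.68 with SE 0.164 and edgeR adjusted p = 0.0139). Sdha was level between the models (log2 fold change 0.00 with SE 0.105 and edgeR adjusted p = 0.993). Atp5s and Ndufs3 were the highest members of at least 5 CPM beside Sdha, at 0.14 (SE 0.405) and 0.17 (SE 0.187), and were not called.

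Other genes of the same pathway were taken from lists of partners of the chain. The mitochondrial genome encodes the remaining subunits of complexes I, III, IV and V. Of its 13 protein-coding transcripts 10 were called lower in hematogenous than in tumor-free libraries (76.9%, all tested genes 6.87%), with a median of −0.98, and 0 higher. The complex I gene mt-Nd4 averaged 569 ± 92.2 CPM in hematogenous and 1220 ± 349 CPM in tumor-free libraries (SD, n = 4 each; log2 fold change −1.10 with SE 0.189 and edgeR adjusted p = 0.000755). For complex IV, mt-Co3 averaged 24.5 ± 7.30 CPM in hematogenous and 58.2 ± 16.6 CPM in tumor-free libraries (log2 fold change −1.24 with SE 0.265 and edgeR adjusted p = 0.00375). Counts of mt-Co1 were far higher, at 3274 ± 705 and 6293 ± 1662 CPM (log2 fold change −0.94 with SE 0.206 and edgeR adjusted p = 0.00426). Why the counted levels of these genes lie so far apart was not tested. Neither the hematogenous libraries against the lymphatic ones nor the lymphatic against the tumor-free ones gave a call in this list, with edgeR adjusted p of 0.121 or more and 0.081 or more and medians of −0.48 and −0.50.

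The tricarboxylic acid cycle, which feeds electrons to the chain, had 2 of 20 genes called lower in hematogenous than in tumor-free libraries, with a median of −0.25. That is 10% of the list, beside 6.87% of all tested genes. The malate dehydrogenase gene Mdh2 averaged 72.0 ± 11.6 CPM in hematogenous and 128 ± 7.76 CPM in tumor-free libraries (log2 fold change −0.83 with SE 0.144 and edgeR adjusted p = 0.000838). Against lymphatic libraries 4 of 20 were lower (all tested genes 5.92%), among them Mdh2 and the succinyl-CoA ligase gene Suclg1. Of 78 mitochondrial ribosomal protein genes, which serve translation inside the organelle, 6 were lower and 1 higher in hematogenous than in tumor-free libraries. These shares, 7.69% and 1.28%, stand beside 6.87% and 9.52% of all tested genes, so the share called lower was near that of all genes. The lower ones included Mrpl18 and Mrpl57 and the higher one was Mrpl24, at 0.54 (SE 0.124, edgeR adjusted p = 0.00612).

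Of 50 tested assembly factors of the chain, a list that also holds the Ndufaf genes, 3 were called lower and 1 higher in hematogenous than in tumor-free libraries. The 6% called lower were near the 6.87% of all tested genes, and the 2% called higher were fewer than the 9.52% of all tested genes. Uqcc2, which serves the translation and assembly of cytochrome b, averaged 8.55 ± 3.00 CPM in hematogenous and 27.8 ± 9.51 CPM in tumor-free libraries (log2 fold change −1.69 with SE 0.295 and edgeR adjusted p = 0.000847). Coa3, a complex IV assembly gene, stood at −1.32 (SE 0.257, edgeR adjusted p = 0.00198). Sdhaf1, which helps to insert the iron-sulphur clusters of complex II, was the higher one, at 13.5 ± 3.38 CPM in hematogenous and 4.51 ± 3.65 CPM in tumor-free libraries (log2 fold change 1.60 with SE 0.440 and edgeR adjusted p = 0.0175).

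Among 18 genes of cytochrome c and the enzymes that feed or make ubiquinone, 2 were called higher and 1 lower in hematogenous than in tumor-free libraries, shares of 11.1% and 5.56% that were near the 9.52% and 6.87% of all tested genes. Etfdh, which passes electrons from fatty acid oxidation to ubiquinone, rose by 0.58 (SE 0.165, edgeR adjusted p = 0.0203), and Coq8a, of ubiquinone synthesis, by 1.33 (SE 0.378, edgeR adjusted p = 0.0209). Gpd2, of the glycerol phosphate shuttle, fell by 0.57 (SE 0.133, edgeR adjusted p = 0.00665). Cycs, the gene of cytochrome c itself, was called against lymphatic libraries alone, with 18.5 ± 6.09 CPM in hematogenous and 41.3 ± 10.3 CPM in lymphatic libraries (log2 fold change −1.15 with SE 0.251 and edgeR adjusted p = 0.00753). In the lymphatic against the tumor-free libraries 0 genes of these 4 lists of nuclear genes were called, with edgeR adjusted p of 0.0758 or more.

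**Figure D5:**
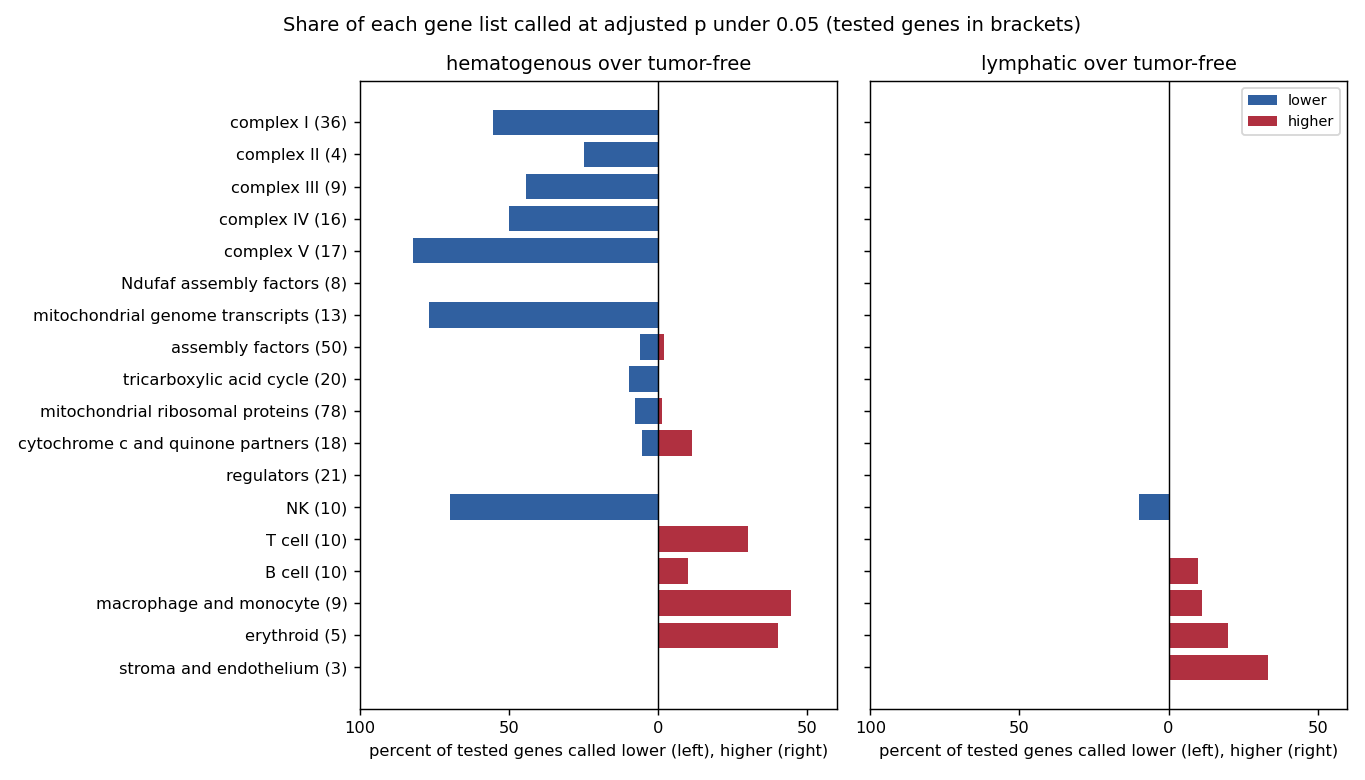
Percent of the tested genes of each list called lower (bars to the left) and higher (bars to the right) at an edgeR adjusted p under 0.05, for hematogenous over tumor-free (left panel) and lymphatic over tumor-free libraries (right panel), with the number of tested genes in brackets. The longest bars in the left panel are those of complex V (14 of 17), the mitochondrial genome transcripts (10 of 13) and the NK markers (7 of 10), and the right panel shows 1 gene called lower among the NK markers and 1 called higher in each of the B cell, macrophage and monocyte, erythroid, and stroma and endothelium lists.

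Many respiratory chain genes are known to be driven by the nuclear respiratory factor NRF-1, by GABP, an ETS family factor, and by YY1. A list of 21 regulators of mitochondrial gene expression holds these and other factors, and also genes that copy or transcribe mitochondrial DNA. Of the 21, 0 were called in hematogenous against tumor-free libraries (edgeR adjusted p of 0.0702 or more), where 16.4% of all tested genes were called. In hematogenous against lymphatic libraries 1 was called lower, a share of 4.76% that was near the 5.92% of all tested genes. That one was Myc, at 68.5 ± 18.2 CPM in hematogenous and 109 ± 29.2 CPM in lymphatic libraries (log2 fold change −0.67 with SE 0.196 and edgeR adjusted p = 0.0371). Nrf1 averaged 61.7 ± 4.54 CPM in hematogenous and 56.2 ± 14.6 CPM in tumor-free libraries, Gabpa 96.5 ± 18.5 CPM in hematogenous and 90.2 ± 15.7 CPM in tumor-free libraries, and Yy1 162 ± 14.7 CPM in hematogenous and 149 ± 10.1 CPM in tumor-free libraries (SD, n = 4 each).

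Promoter windows of 300 bases (RefSeq, GRCm38.p6) were held for 74 of the 94 symbols, 79 windows in all. The NRF-1 motif, the palindrome of GCGCA joined to TGCGC, was found in 7 of the 79 (8.86%) and in 0.971% of all 32851 windows. The ETS core CGGAAG was found in 33 (41.8%, all windows 16.9%) and the YY1 motif AAGATGGC in 10 (12.7%, all windows 2.75%), each searched on both strands. Matches of the ETS core and the YY1 motif can overlap at the letters AAG, and a match is a description of letters, not of binding. Windows of members called lower in hematogenous against tumor-free libraries and windows of members not called are counted apart. They held the NRF-1 motif in 4 of 44 called and 3 of 35 not called, the ETS core in 18 of 44 called and 15 of 35 not called, and the YY1 motif in 7 of 44 called and 3 of 35 not called. These counts were not tested. The windows not called include those of Cox7b2 and Cox8b, which failed the filter on low counts and held none of these motifs.

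The stretches below, of 145 bases from 120 before to 25 after the annotated start, show these motifs in members called lower in hematogenous than in tumor-free libraries. For each motif they are up to 2 called members with a match in the stretch and the smallest adjusted p. Capitals mark motif matches on either strand, so that the ETS core also reads CTTCCG. Atp5k (chr5:108434375-108434519) and Atp5g2 (chr15:102671023-102671167) carry the NRF-1 palindrome, Atp5e (chr2:174464077-174464221) and Cox6a1 (chr5:115348934-115349078) the ETS core, and Atp5j (chr16:84834952-84835096), the gene of a peripheral stalk subunit, the YY1 motif. All 5 lie on the minus strand and are written 5′ to 3′ in the direction of the gene.
Atp5k: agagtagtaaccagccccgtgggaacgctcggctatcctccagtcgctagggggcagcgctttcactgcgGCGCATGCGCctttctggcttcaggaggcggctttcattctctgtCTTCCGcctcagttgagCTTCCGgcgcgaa
Atp5g2: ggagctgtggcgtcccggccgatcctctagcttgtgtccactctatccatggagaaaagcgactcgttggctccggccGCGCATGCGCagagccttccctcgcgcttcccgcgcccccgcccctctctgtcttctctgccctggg
Atp5e: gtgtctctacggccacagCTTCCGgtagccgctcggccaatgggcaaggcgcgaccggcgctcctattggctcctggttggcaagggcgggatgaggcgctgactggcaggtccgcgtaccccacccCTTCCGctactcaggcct
Cox6a1: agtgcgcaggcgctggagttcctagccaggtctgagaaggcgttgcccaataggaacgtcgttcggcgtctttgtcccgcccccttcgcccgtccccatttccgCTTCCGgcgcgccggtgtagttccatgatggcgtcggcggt
Atp5j: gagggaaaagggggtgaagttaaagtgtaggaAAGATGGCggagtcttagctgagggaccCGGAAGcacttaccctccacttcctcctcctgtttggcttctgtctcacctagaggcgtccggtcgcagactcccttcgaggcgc

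Respiratory chain genes had short exon lengths, again as the union of annotated exons. The median was 1696.5 bases in the 90 tested members, against 3645 bases in all tested genes with a length. Across the tested members, Spearman's rho between exon length and log2 fold change was 0.39 for hematogenous against tumor-free and 0.37 for hematogenous against lymphatic libraries. Across all 15661 tested genes with a length it was 0.17 and 0.18. These are descriptions across genes, which share libraries and are not independent. In the comparison with tumor-free libraries 22 of 40 members of up to 1500 bases and 25 of 50 longer ones were called lower, beside 7.52% and 6.85% of all tested genes of those lengths. With the length trend removed from all genes 47 members were called lower, and 46 of the 47 called before were among them. In the comparison with lymphatic libraries 18 of 40 shorter and 19 of 50 longer members were called lower, beside 4.31% and 6.46% of all tested genes of those lengths. There the removal of the length trend left 15 of the 37 calls.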

How the data were processed

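RNA of NK cells sorted from lymph nodes was sequenced in 12 libraries, grouped by sample title. The authors deposited 1 file of unnormalized gene counts per library. Per the labels' protocols, libraries were made from poly(A) RNA and read as stranded single-end reads. The submitters' processing notes name HTSeq 2.0.2, HISAT2 2.1.0, Trimmomatic 0.39, FastQC 0.11.9 and the build GRCm39, without roles or settings. For the annotation release, settings and strand option the sources used here give nothing, so overlapping, antisense and near-identical genes, including processed pseudogenes of members, may share reads. The 5 summary lines of each file entered neither library sizes nor tests.

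GENCODE M21 symbols, of an older build, matched 52125 IDs (91.9%, holding 99.6% of counts), and older symbols are used (Atp5e, Atp5o), so Atpif1 and Usmg5 fell outside the rule. The test was edgeR 4.0.16 in R 4.3.3: robust quasi-likelihood F test, TMM scaling, default filter by group, all 12 libraries, group as the single term, 9 residual degrees of freedom, 16016 genes tested, a gene called at an adjusted p under 0.05. The biological coefficient of variation was 0.429. SE is the size of the log2 fold change over the square root of F. CPM are TMM-scaled. On simulated counts the test recovered 35% to 43% of 2-fold and 58% to 66% of 4-fold changes. False calls numbered 8 of 117 for lymphatic against tumor-free, 0 of 95 for hematogenous against tumor-free and 3 of 100 for hematogenous against lymphatic libraries. A member that was not called may therefore still differ. Exact permutation tests compared library measures.

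The members and lists were chosen with earlier results of these data known. Named per comparison were up to 6 called members per direction by adjusted p and the 3 highest and 3 lowest log2 fold changes at a mean of at least 5 CPM, and always the 2 most abundant genes of each complex, complex II, Cyc1, isoform sets and Atpif1. From other lists up to 3 called genes were named. Single genes of 2 of these lists are not reported here, in text or figures, and stay in the fits, sums and counts. Alternatives were other scalings, filters, DESeq2 1.42.0, voom with quality weights (limma 3.58.1), a replicate block, a B cell covariate, thinning to 6654215 counts, removal of the length trend, fits of 2 groups, and each library left out.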

Additional observations from a re-analysis of the deposited data

Results flagged for a closer look

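A single library stood apart from the other 3 of its group (Dixon's test) in 11 of 135 groups of 4 values, where chance flags about 1 in 20. In tumor-free replicate 2 these were the complex II sum, high at 532 CPM, Atp5e, high at 217 CPM, and Cox7a2, low at 39.1 CPM. Tumor-free replicate 3 had a low Atp5o at 55.9 CPM and the one tumor-free value of Cox7a1 above 0, 3.45 CPM, and tumor-free replicate 4 a high Atp5s at 11.8 CPM. Lymphatic replicate 2 was high for Atp5b at 873 CPM and Atp5g1 at 41.9 CPM, and lymphatic replicate 3 low for Atp5c1 at 111 CPM. Hematogenous replicate 1 was low for Sdhc at 36.9 CPM, and hematogenous replicate 4 held the one hematogenous value of Cox4i2 above 0, 0.657 CPM.

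The change against tumor-free libraries differed between the models for 37 of the 90 tested members, all lower in hematogenous libraries (41.1%, all tested genes 5.92%). This was tested as the hematogenous minus the lymphatic log2 change in edgeR. Of the 40 tested members named in any comparison, 19 were among them (edgeR adjusted p from 0.00295 to 0.0334). Part of these were named for their small adjusted p in this same comparison, so the 19 of 40 is no separate result. In complex V the differences were −0.66 for Atp5a1, −0.82 for Atp5b, −0.68 for Atp5c1, −0.85 for Atp5d, −0.86 for Atp5e, −0.97 for Atp5g2, −0.67 for Atp5g3, −1.08 for Atp5k and −0.77 for Atp5o. In complex IV they were −0.59 for Cox4i1, −0.70 for Cox6a1, −0.83 for Cox6b1, −0.92 for Cox7a2 and −0.58 for Cox8a. Elsewhere they were −0.68 for Ndufa2, −0.63 for Ndufa7, −0.996 for Ndufs6, −0.68 for Sdhc and −0.61 for Uqcrc2. Because both changes share the tumor-free libraries, this is the direct comparison of the models.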

How the results depend on the processing

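For hematogenous against tumor-free libraries, 27 members were called lower with the B cell covariate, against 47 as reported. Leaving out 1 library gave 33 to 49 lower and 0 to 1 higher (1 without tumor-free replicate 3). For hematogenous against lymphatic libraries, 22 were lower with library size alone and 15 with the length trend removed, against 37 (library size alone put the median log2 fold change of all genes at 0.10, against −0.01 with TMM), and leaving out 1 library gave 13 to 37. For lymphatic against tumor-free libraries, where 0 were reported, there was 1 lower member with DESeq2 size factors, with the stricter filter, at equal depth and in the fit of those 2 groups, 2 with library size alone and with the length trend removed, and 3 with the DESeq2 Wald test. Leaving out 1 library gave 0 to 1 lower and 0 to 1 higher there. All other counts moved by less than 1.5 times, and the 3 medians by less than the spread between libraries (SD 0.208 on the log2 scale). That spread is larger than the median log2 fold change of members for lymphatic against tumor-free libraries, −0.05. This median moved furthest with the length trend removed, to −0.24, and changed sign with the B cell covariate (0.11) and without lymphatic replicate 3 (0.05). Without the Ndufaf genes the counts of calls were the same.

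Replicate numbers did not pair the libraries (correlations of same-numbered deviations −0.0935 to 0.0825, 3 of 12 libraries closest to their own number). With the replicate block 49, 38 and 0 members were called lower for hematogenous against tumor-free, hematogenous against lymphatic, and lymphatic against tumor-free libraries.

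Of 26 called results for named members, 0 changed sign under the alternatives run and 17 kept their call under each of them. Signs turned for uncalled values near 0. For hematogenous against tumor-free libraries, Ndufs1 was −0.00929 with the stricter filter, −0.00911 at equal depth, −0.21 with the length trend removed and −0.0957 to 0.116 without single libraries. Sdha was −0.019 with the length trend removed and −0.0234 to 0.0658 without single libraries. For hematogenous against lymphatic libraries, Sdha was −0.00723 with voom quality weights, −0.00040 with the B cell covariate and −0.0507 to 0.0703 without single libraries, and Atp5s was −0.116 at equal depth and −0.0645 to 0.45 without single libraries. The cause was not tested. Of the tested members Cox4i2, Cox7a1, Ndufaf6 and Cox6b2 had the lowest mean levels, 0.617 to 2.30 CPM, and small changes in them were not detectable at this depth.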
